A study of Mus musculus with 3 samples.

Results

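The variable (V) segments of the mouse antibody kappa light chain, gene symbols Igkv followed by a family number and a position number, were followed on 3 expression arrays of long-term haematopoietic stem cells (LT-HSCs). Members were all genes of the deposited table whose symbol in the platform's probe table starts with Igkv and a digit. The rule found 94 members among 23185 genes with a symbol and 25206 probe sets in all, and no measured value entered it. All 94 lie on chromosome 6 in the RefSeq gene table, which types each of them as a V segment and none as a pseudogene. That table holds 162 such symbols, of which 102 are V segments and 60 V segment pseudogenes.

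LT-HSCs, rare marrow cells that maintain blood formation for life, came from female C57Bl/6 mice aged 8 to 10 weeks. The first group was given 8 Gy of total body irradiation (TBI) as FLASH, delivery at an ultra-high dose rate. The second had received 8 Gy TBI at CDR, read here as conventional dose rate because the labels do not spell it out, and the last was non-irradiated. In every group 10000 LT-HSCs were taken from bone marrow, at day 15 after TBI per the labels. Each group had 1 array, so no value has a replicate, no test between groups is possible, and "higher" and "lower" describe these arrays only. The sources used here give neither the sorting gate nor how many mice were pooled into a sample.

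An antibody light chain is assembled by V(D)J recombination, which joins a V segment to a J segment in each developing B cell. In the kappa locus the joined V and J are then spliced to the constant region Igkc. A B cell and its plasma cell descendants mostly transcribe the V segment they have joined, so a V segment's transcript level in a B lineage population reads how much RNA came from cells using it. V segments without rearrangement are transcribed weakly, as germline transcripts, in early B lineage cells. Haematopoietic stem cells carry the kappa locus unrearranged. In a bulk sample, fewer cells of a type and less RNA per cell cannot be told apart.

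Values are log2 levels as the authors deposited them, and a difference is the log2 level on the array named first minus that on the array named after it. A gene counted as above the detection level on an array when it exceeded the 95th percentile there of 1364 olfactory, trace amine and vomeronasal receptor genes, which stood in for unexpressed genes. It was 4.22 on FLASH, 4.16 on CDR and 4.15 on non-irradiated. In a comparison a gene was detected when the brighter of the arrays exceeded its level, and where the dimmer array lay under its own level the fold is a lower bound against that level. Counts at 2-fold over all members go by the deposited difference, which a reading under the level can widen, and they are followed by the counts with every such reading raised to its array's level. Profiles and the counts by family, by position and for the heavy chain use the raised readings only. Signals of near-identical V segments may reach each other's probes, and the part of such sharing in these values was not tested. The 12 measured genes of the LT-HSC marker list, among them Kit, Procr, Slamf1, Hlf and Mecom, were all above the detection level on all 3 arrays. So were Cd34, Cd48 and Flt3 of the same list, genes whose products LT-HSCs are usually defined as having little of on the surface. Against non-irradiated, 10 of the 12 were below 0 on CDR, 4 of them by 2-fold or more (Hlf, Procr at -1.73, Meis1 at -1.26 and Flt3 at -1.05), and 9 were below 0 on FLASH, 2 of them by 2-fold or more (Hlf at -1.90 and Flt3 at -1.47). Over all detected genes 2.36% were lower by 2-fold or more on CDR than on non-irradiated, and 1.75% on FLASH. Hlf read 8.02 on FLASH, 7.92 on CDR and 9.92 on non-irradiated. The list's summed unlogged level was 4731 on FLASH, 5047 on CDR and 7122 on non-irradiated, and its median difference for FLASH minus CDR was 0.00. These counts, the sum and the median include Cd34, Cd48 and Flt3, so they do not read LT-HSC signal alone. Cd34 and Cd48 were the brightest genes of the list on FLASH (10.81 and 10.05) and on CDR (10.92 and 10.18). The part of the list's shift against non-irradiated in the kappa values was not tested.

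Kappa V segments were present on all 3 arrays and fewest on the CDR array. Of the 94 members, 61 were above the detection level on FLASH, 36 on CDR and 58 on non-irradiated. The number of all genes above the level was close between arrays, at 13054, 13200 and 13316 in the same order. The median level over all 94 members was 5.64 on FLASH, 3.68 on CDR and 5.37 on non-irradiated. Their summed unlogged level was 16570 on FLASH, 4759 on CDR and 19536 on non-irradiated. The lowest member read 1.84, 1.23 and 1.84 on these arrays and the highest 11.06, 9.23 and 12.11. The highest was Igkv15-103 on each of them.

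**Figure D1:**
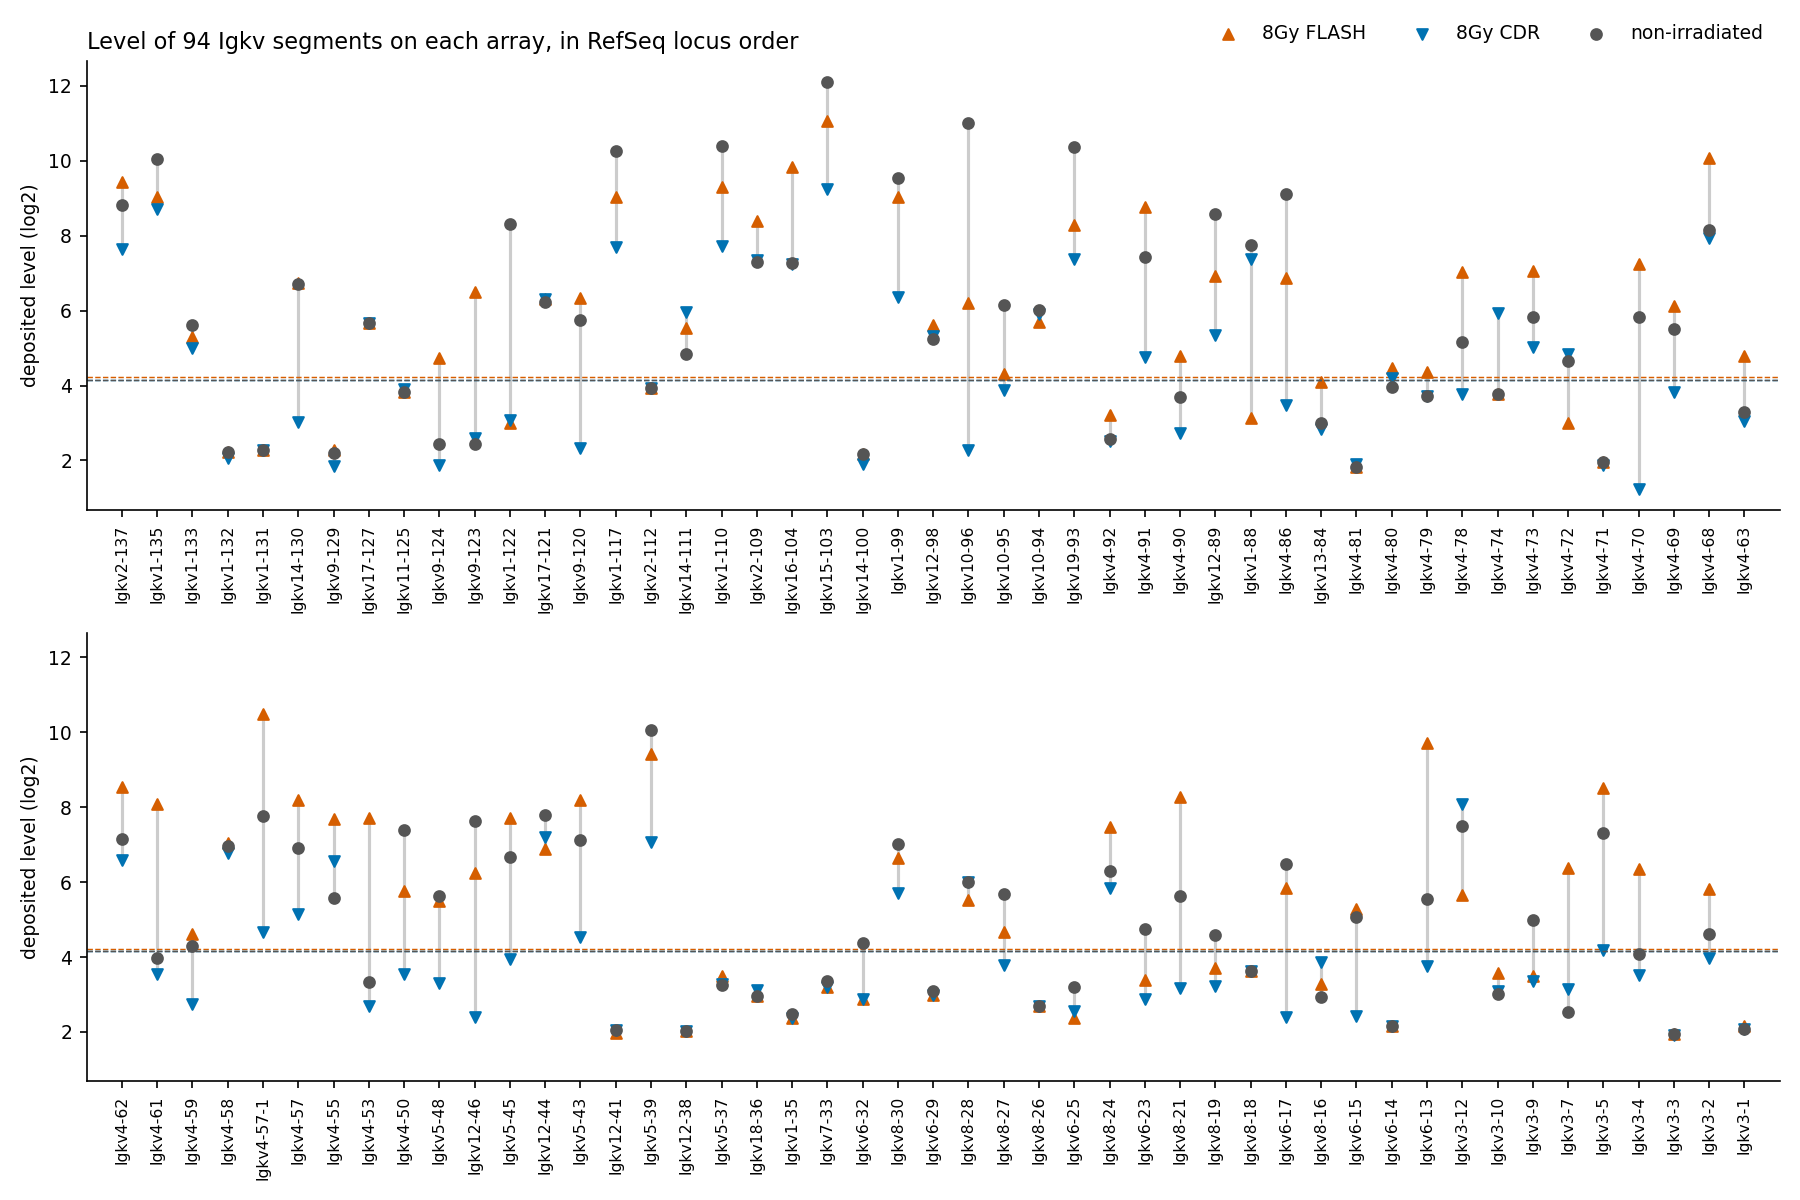
Log2 level (vertical axis) of each of the 94 Igkv segments on the 8Gy FLASH, 8Gy CDR and non-irradiated arrays, in the order of the RefSeq gene table from the segment farthest from Igkc (upper left) to the nearest (lower right). Dashed lines are the detection levels, grey bars join the 3 values of a member, and the CDR value is the lowest for 41 of the 54 members above the level on 2 or more arrays.

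Detection across the arrays split the members as follows. On all 3 arrays 32 members were above the level, and 25 were above it on none. A further 19 were above it on the FLASH and non-irradiated arrays and not on CDR, including Igkv14-130, Igkv6-17 and Igkv10-96. Only on the FLASH array were 9 members above the level, Igkv9-124, Igkv9-123, Igkv4-90, Igkv4-79, Igkv4-63, Igkv4-61, Igkv4-53, Igkv3-7 and Igkv3-4. The non-irradiated array alone held 5 above its level, Igkv1-122, Igkv6-32, Igkv6-23, Igkv8-19 and Igkv3-9. Igkv4-74 was above it on the CDR array alone, Igkv1-88 and Igkv4-72 on the CDR and non-irradiated arrays, and Igkv4-80 on both irradiated arrays. The share of all genes with each of these splits is not given here, so the counts describe the members only. Being above the level on 1 array need not mean a wide gap. With readings under the level raised to it, Igkv9-124, Igkv4-90, Igkv4-79 and Igkv4-63 lay within 2-fold over the 3 arrays. So did Igkv6-32, Igkv6-23, Igkv8-19 and Igkv3-9.

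By size of the gaps, the 69 members above the level on at least 1 array fell into a few profiles. With readings under the level raised to it, the FLASH array stood at least 2-fold above the other arrays, which lay within 2-fold of each other, for 13 members. The CDR array stood at least 2-fold below the other arrays in the same way for 8 members, the non-irradiated array above them for 5, the FLASH array below them for 2, Igkv1-88 and Igkv3-12, and the CDR array above them for 1, Igkv4-74. Steps of at least 2-fold in the order FLASH, non-irradiated, CDR were found for 10 members, and in the order non-irradiated, FLASH, CDR for 8. For 19 members the 3 arrays lay within 2-fold, and 3 differed by 2-fold only between the extremes. Shares of these profiles over all genes are not given here, so the counts describe the members only. The highest value was on the FLASH array for 36 of the 69, on the CDR array for 4 and on the non-irradiated array for 26, leaving out ties. Among the 54 members above the level on 2 or more arrays, the lowest value was on the FLASH array for 6, on the CDR array for 41 and on the non-irradiated array for 6. The 3 comparisons that follow share arrays pairwise, so their values are not independent of each other.

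The CDR and non-irradiated arrays were compared to ask how the kappa V segments stood 15 days after 8 Gy at CDR. Most detected members were lower on the CDR array. Of 60 detected, 38 were lower by 2-fold or more (63.3%) and 2 higher by 2-fold or more (3.33%), while over all 13448 detected genes 2.36% were lower by 2-fold or more and 0.766% higher by 2-fold or more. With raised readings 32 members were lower and 2 higher by that much, beside 2.14% and 0.677% of all detected genes. The median difference was -1.65 over the detected members and 0.00 over all detected genes. The table holds 1 identical value on all 3 arrays for 39.8% of the 23185 named genes and for 7.45% of the members, and what the authors' processing contributed to these ties, which hold down the shares over all genes, was not tested. Over all 94 members, those never detected included, it was -0.56, and the middle quartiles ran from -2.31 to 0.00. Detection favours members that are bright on 1 of the arrays, so the shares over detected members are read only beside the same share over all genes.

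The widest gap belonged to Igkv10-96, which read 2.27 on the CDR array and 11.02 on the non-irradiated array. The difference of -8.75 crosses the detection level, so the fold is at least 116-fold lower on CDR. Igkv4-86 read 3.48 on the CDR array and 9.10 on the non-irradiated array, at least 30.7-fold lower. Igkv1-122 read 3.09 and 8.30 on the same arrays and was at least 17.6-fold lower. Igkv12-46 read 2.41 on CDR and 7.64 on non-irradiated, at least 11.2-fold lower. All 4 were under the level on the CDR array and well above it on the non-irradiated one.

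The other members of the 10 largest negative deposited differences followed. Igkv4-50 read 3.54 on the CDR array and 7.40 on the non-irradiated array, at least 9.45-fold lower. Igkv14-130 stood at 3.03 and 6.71, at least 5.84-fold lower, and Igkv6-17 at 2.41 and 6.48, at least 5.00-fold lower. Igkv4-70 had the lowest reading of any member, 1.23 on the CDR array, against 5.83 on the non-irradiated array. Its deposited difference of -4.60 corresponds to at least 3.18-fold only, because the detection level and not the reading sets the bound. Igkv9-120 was at 2.34 and 5.76, at least 3.03-fold lower. Igkv12-89 was measured above the level on both arrays, 5.34 on CDR and 8.57 on non-irradiated, and was 9.42-fold lower. Some members outside these 10 had wider folds than the bounds of Igkv4-70 and Igkv9-120. With both arrays above the level, Igkv1-99 was 8.92-fold lower on CDR, Igkv3-5 8.75-fold and Igkv15-103 7.33-fold.

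Few members went the other way on the CDR array. Igkv4-74 read 5.93 on CDR and 3.76 on non-irradiated, at least 3.43-fold higher, and Igkv14-111 read 5.95 on CDR and 4.84 on non-irradiated, 2.17-fold higher. Igkv4-55 was just under 2-fold, at 6.57 on CDR and 5.58 on non-irradiated, a difference of 0.99. Igkv3-12 stood at 8.08 and 7.49, a difference of 0.59. The remaining detected members above 0 lay between 0.05 (Igkv2-109) and 0.23 (Igkv4-80).

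The same question for FLASH gave differences in both directions. Of 68 members detected on FLASH or non-irradiated, 26 were higher by 2-fold or more on FLASH (38.2%) and 19 lower by 2-fold or more (27.9%). Over all 13288 detected genes 1.17% were higher by 2-fold or more and 1.75% lower by 2-fold or more. With raised readings 23 members were higher and 15 lower by that much, beside 1.04% and 1.58% of all detected genes. The median difference was 0.26 over the detected members and 0.00 over all detected genes, and the median size of the difference, without sign, was 1.21 and 0.09. Over all 94 members the median difference was 0.00, with middle quartiles from -0.60 to 1.09.

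Among the 10 largest positive differences were members under the level on the non-irradiated array, which were detected in this comparison through the FLASH array only. Igkv4-53 read 7.70 on the FLASH array and 3.35 on the non-irradiated array, at least 11.7-fold higher. Igkv4-61 read 8.08 on FLASH and 3.97 on non-irradiated, at least 15.3-fold higher. Igkv9-123 was at 6.49 and 2.44, at least 5.05-fold higher. These were under the level on both other arrays, and Igkv3-7, at 6.37 on FLASH and 2.52 on non-irradiated, at least 4.66-fold higher, was as well. Igkv9-124 and Igkv3-4, at least 1.51-fold and 4.60-fold higher, shared that profile.

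Other members that were higher on FLASH could be measured on both arrays. Igkv6-13 read 9.71 on FLASH and 5.54 on non-irradiated, 18.1-fold higher. Igkv4-57-1 read 10.48 and 7.78, 6.52-fold higher, and Igkv8-21 read 8.28 and 5.62, 6.31-fold higher. Igkv16-104, the only member of its family, stood at 9.82 on FLASH and 7.28 on non-irradiated, 5.83-fold higher, while its CDR value of 7.25 was close to the non-irradiated one.

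Lower on FLASH were several members that read high on the non-irradiated array. Igkv1-122 read 2.99 on FLASH and 8.30 on non-irradiated, at least 17.0-fold lower, and Igkv1-88 read 3.14 and 7.74, at least 11.5-fold lower. For Igkv10-96 the FLASH array had 6.21 and the non-irradiated array 11.02, 28.0-fold lower. The CDR value of Igkv1-88, 7.38, was near the non-irradiated one. Igkv4-86 (6.87 on FLASH, 9.10 on non-irradiated) and Igkv19-93 (8.29 and 10.36) were 4.70-fold and 4.21-fold lower. Igkv10-95, Igkv3-12, Igkv12-89 and Igkv4-50 were between 3.08-fold and 3.64-fold lower, and Igkv4-72 at least 1.35-fold.

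The FLASH and CDR arrays were set against each other to ask whether the kappa V segments differed with dose rate at the same dose and day. Most detected members were higher on the FLASH array. Of 64 detected, 44 were higher by 2-fold or more (68.8%) and 4 lower by 2-fold or more (6.25%), while over all 13184 detected genes 0.85% were higher by 2-fold or more and 0.144% lower by 2-fold or more. With raised readings 40 members were higher and 3 lower by that much, beside 0.758% and 0.129% of all detected genes. The median difference was 1.98 over the detected members, 0.89 over all 94 and 0.00 over all detected genes. The middle quartiles of all 94 ran from 0.00 to 2.65.

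**Figure D2:**
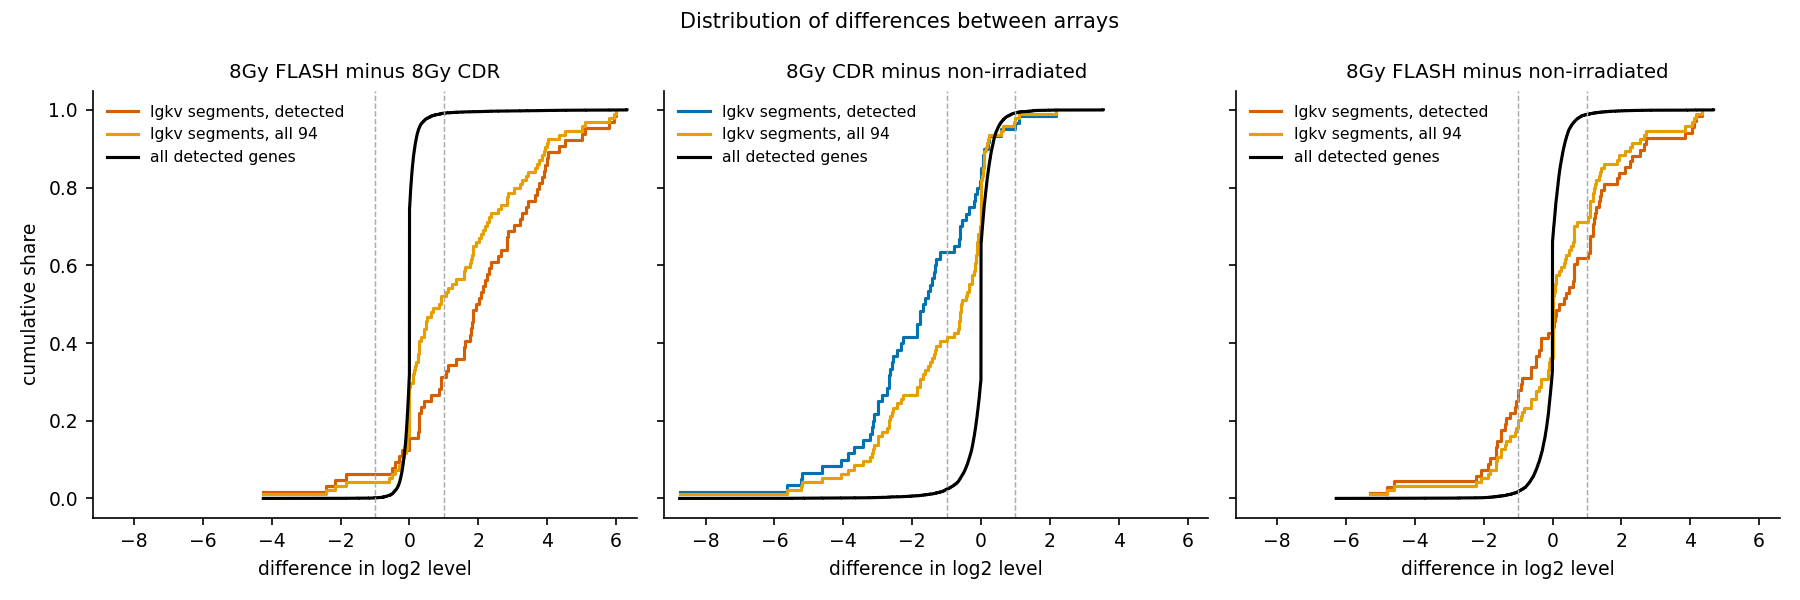
Cumulative share (vertical axis) of genes at or below each log2 difference (horizontal axis) in the 3 comparisons, for the detected Igkv segments, all 94 Igkv segments and all detected genes, with dashed lines at 2-fold. The curve of all detected genes rises close to 0, while the detected Igkv curve has its median at 1.98 for FLASH minus CDR, -1.65 for CDR minus non-irradiated and 0.26 for FLASH minus non-irradiated.

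Igkv4-57-1 read 10.48 on the FLASH array and 4.67 on the CDR array, 56.1-fold higher, with both values above the level. Igkv6-13 read 9.71 and 3.76, at least 47.0-fold higher. Igkv3-5, at 8.51 on FLASH and 4.18 on CDR, was 20.1-fold higher, and Igkv8-21, at 8.28 and 3.17, at least 17.4-fold higher. These 4 members come from families 4, 6, 3 and 8, so the widest gaps were not from a single family. Igkv4-91 (8.78 on FLASH, 4.75 on CDR) was 16.3-fold higher, Igkv4-61 at least 15.2-fold and Igkv4-53 at least 11.6-fold. Igkv4-70, which had the largest deposited difference at 6.01, read 7.23 on FLASH and 1.23 on CDR and was at least 8.42-fold higher. Igkv9-120 and Igkv10-96 completed the 10 largest deposited differences, at least 4.55-fold and 4.15-fold higher. Readings under the level widen these differences, so their order is not the order of the folds. Outside these 10, Igkv5-43 was 12.6-fold and Igkv4-57 8.16-fold higher, with both values above the level, and Igkv5-45 at least 11.8-fold.

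By the deposited difference 4 members were lower by 2-fold or more on FLASH than on CDR, and 3 of them had a fold or bound above 2. Igkv1-88 read 3.14 on FLASH and 7.38 on CDR, at least 8.99-fold lower. Igkv3-12 read 5.67 and 8.08 on the same arrays, 5.32-fold lower. Igkv4-74 was at 3.76 on FLASH and 5.93 on CDR, at least 3.28-fold lower, and Igkv4-72, the exception, at 2.99 and 4.85, at least 1.55-fold lower. The other 4 detected members below 0 were Igkv8-28, Igkv14-111, Igkv12-44 and Igkv10-94, with differences from -0.49 to -0.22.

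The 94 members belong to 19 families, numbered by sequence likeness, of which 8 have at least 4 members and together hold 76. Family 4, with 25 members, had a median level of 6.87 on FLASH, 3.76 on CDR and 5.17 on non-irradiated. Its members were above the detection level 20, 11 and 15 times on these arrays. Of 21 detected against non-irradiated, 11 were higher by 2-fold or more on FLASH and 2 lower by 2-fold or more, with a median deposited difference of 1.10 over all 25. On the CDR array 8 of 17 detected were lower by 2-fold or more and 1 higher by 2-fold or more. Over all detected genes, with raised readings, 1.04% were higher and 1.58% lower by that much on FLASH than on non-irradiated. For CDR against non-irradiated the shares were 0.677% and 2.14%. The same shares apply beside the counts of the other families. Of the 13 members that stood at least 2-fold above the other arrays on FLASH, 6 were of family 4, which holds 25 of the 94 members.

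Family 1, with 10 members, had its highest median on the non-irradiated array. The median level was 4.21 on FLASH, 5.69 on CDR and 8.02 on non-irradiated. All 7 detected members were lower on both irradiated arrays, 5 of them by 2-fold or more on CDR and 5 on FLASH. The 4 that passed 2-fold on both were Igkv1-135, Igkv1-122, Igkv1-117 and Igkv1-110. Igkv1-117 read 9.04 on FLASH, 7.70 on CDR and 10.26 on non-irradiated, and Igkv1-110 read 9.30, 7.73 and 10.40. Igkv1-99 stood at 9.04 on FLASH, 6.37 on CDR and 9.53 on non-irradiated. Family 1 thus had the FLASH value between the CDR and non-irradiated values in these 3 members, and at the bottom in Igkv1-88. Igkv1-122 was under the level on both irradiated arrays, whose readings therefore have no order.

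Family 5, with 5 members, had 4 detected members, Igkv5-48, Igkv5-45, Igkv5-43 and Igkv5-39, all lower by 2-fold or more on CDR than on non-irradiated. Igkv5-43 and Igkv5-39 were above the level on both arrays and were 5.96-fold and 7.98-fold lower. Igkv5-48 and Igkv5-45 were under the level on CDR and were at least 2.75-fold and 5.73-fold lower. Over these 4 members, differences between FLASH and non-irradiated ran from -0.63 to 1.08. Igkv5-39 read 9.42 on FLASH, 7.06 on CDR and 10.06 on non-irradiated, and Igkv5-43 read 8.20, 4.55 and 7.12. The fifth member, Igkv5-37, was under the level on all arrays.

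Family 6 had no member of 8 above the detection level on the CDR array, against 3 on FLASH and 5 on non-irradiated. Its 5 detected members all read lower on CDR than on non-irradiated, and the bound passed 2-fold for Igkv6-17 and Igkv6-13. The bounds of Igkv6-15, Igkv6-23 and Igkv6-32 stayed under it, from 1.88-fold for Igkv6-15 to 1.15-fold for Igkv6-32. On FLASH 1 was higher by 2-fold or more, Igkv6-13, and 0 were lower by that much. Family 9 had 4 members with a median level of 5.55 on FLASH, 2.11 on CDR and 2.44 on non-irradiated. It too had none above the level on CDR, 3 on FLASH and 1, Igkv9-120, on non-irradiated. Family 3, with 9 members, had medians of 5.67 on FLASH, 3.36 on CDR and 4.09 on non-irradiated, family 8, with 9 members, 4.67, 3.80 and 5.62, and family 12, with 6 members, 5.94, 3.87 and 6.44. The pair of family 17 was nearly level, with Igkv17-127 at 5.66 on every array and Igkv17-121 at 6.30 on both irradiated arrays and 6.23 on non-irradiated.

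**Figure D3:**
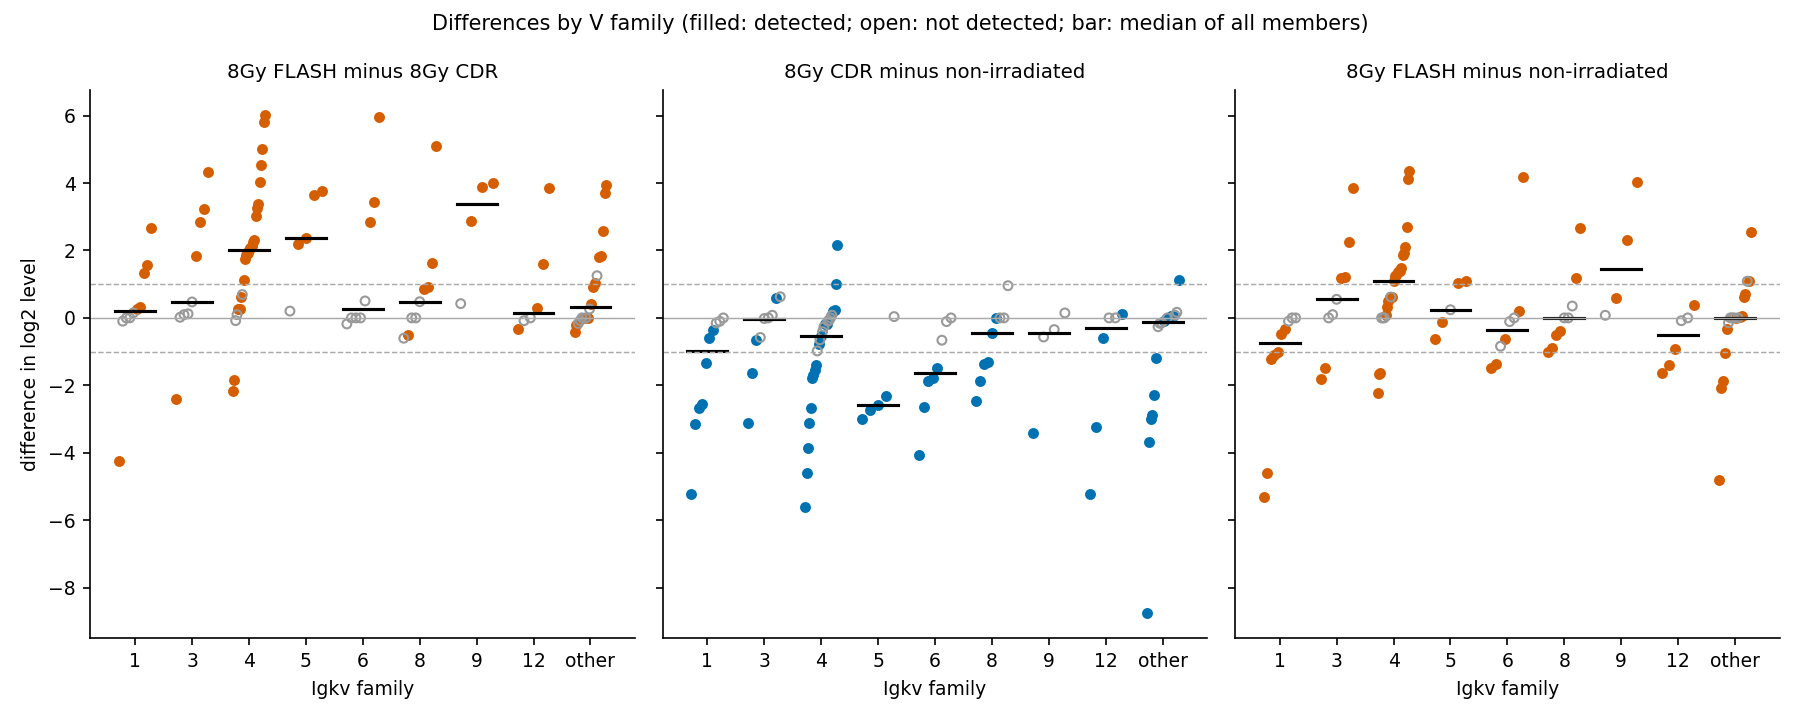
Log2 difference (vertical axis) of each Igkv segment by V family (horizontal axis) in the 3 comparisons, with the 18 members of smaller families under "other". Filled points are detected members, open points members not detected in that comparison, bars the median of all members of the family and dashed lines 2-fold. Family 4 has medians of 2.03, -0.55 and 1.10, and family 5 of 2.36, -2.57 and 0.24.

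Position in the locus was taken as order only, since the array's genome build is not given. All 94 members precede Igkc in the RefSeq order, from Igkv2-137, the farthest, to Igkv3-1, the nearest. The order was cut into a far block of 31 members (Igkv2-137 to Igkv4-90), a middle block of 31 (Igkv12-89 to Igkv12-41) and a near block of 32 (Igkv5-39 to Igkv3-1). Between FLASH and CDR the numbers higher by 2-fold or more were 12 of 23 detected in the far block, 18 of 27 in the middle and 10 of 14 in the near block. Against non-irradiated, the CDR array had 13 of 21, 12 of 23 and 7 of 16 lower by 2-fold or more. By the deposited difference the near block had 12 of 16. All 3 blocks thus held members lower on CDR. Over all detected genes, with raised readings, 0.758% were higher by 2-fold or more on FLASH than on CDR. Lower on CDR than on non-irradiated by that much were 2.14%, and on FLASH 1.04% were higher and 1.58% lower than on non-irradiated. On FLASH against non-irradiated, the middle block had 12 members higher by 2-fold or more and 5 lower, the far block 4 and 8, and the near block 7 and 2. The middle block holds 22 of the 25 family 4 members, which supplied 10 of those 12, so family and position cannot be told apart there.

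The constant region of the locus differed less between the arrays than the median detected V segment in the comparisons with CDR, and in these its J segments Igkj1 and Igkj5 differed more than the constant region. Igkc, spliced to every kappa V segment, read 12.46 on FLASH, 11.82 on CDR and 12.55 on non-irradiated. Its differences were 0.63 for FLASH minus CDR, -0.72 for CDR minus non-irradiated and -0.09 for FLASH minus non-irradiated. Of detected members, 39 of 60 lay below the Igkc difference on CDR against non-irradiated, and 39 of 68 above and 29 below it on FLASH against non-irradiated. Without the detection filter, the median over all 94 members on CDR against non-irradiated was -0.56, smaller in size than the Igkc difference. There 40 members lay below that difference and 54 above it. For FLASH minus CDR the median over all 94 was 0.89, still larger than that of Igkc. Igkc was near the top of the scale, with 10 rows of the table brighter on FLASH, 48 on CDR and 10 on non-irradiated. The part of this position on the scale in its small differences was not tested.

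Igkj1 read 11.86 on FLASH, 10.96 on CDR and 12.47 on non-irradiated, and Igkj5 read 11.79, 9.53 and 11.82. Both were lower on the CDR array, by a log2 difference of -1.51 and -2.29 from non-irradiated. Igkj3 lay under the detection level on all arrays, and Igkj2 and Igkj4 were not analysed here. The lambda light chain, the alternative to kappa, was measured through 3 V segments. Iglv1 read 8.05 on FLASH, 7.52 on CDR and 9.76 on non-irradiated, and Iglv2 read 7.39, 4.99 and 7.82. Iglv3 had another order, at 7.94 on FLASH, 7.04 on CDR and 5.61 on non-irradiated.

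Heavy chain V segments, the partners of the kappa chains, were counted with raised readings. Of 52 detected heavy chain V segments, 29 were higher by 2-fold or more on FLASH than on CDR and 2 lower by 2-fold or more. Against non-irradiated, 36 of 58 were lower by 2-fold or more on CDR and 2 higher by 2-fold or more, and on FLASH 11 of 62 were higher by 2-fold or more and 16 lower by 2-fold or more. The last of these splits leaned lower for heavy chain and higher for kappa, a difference for which no test is possible with 1 array per group. With raised readings, 0.758% of all detected genes were higher and 0.129% lower by 2-fold or more on FLASH than on CDR. These shares were 0.677% and 2.14% for CDR minus non-irradiated, and 1.04% and 1.58% for FLASH minus non-irradiated. Of the heavy chain constant regions, Ighm (IgM) read 11.64 on FLASH, 10.49 on CDR and 11.83 on non-irradiated, and Igha (IgA) read 11.21, 9.95 and 11.31. Ighg2c, an IgG constant region, was under the detection level on FLASH at 3.61 and read 4.34 on CDR and 8.84 on non-irradiated. Ighg2b read 3.90, 6.45 and 6.78 on these arrays, and Ighg1 read 6.89, 6.96 and 7.51. Ighg3 and Ighe were under the level throughout.

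**Figure D4:**
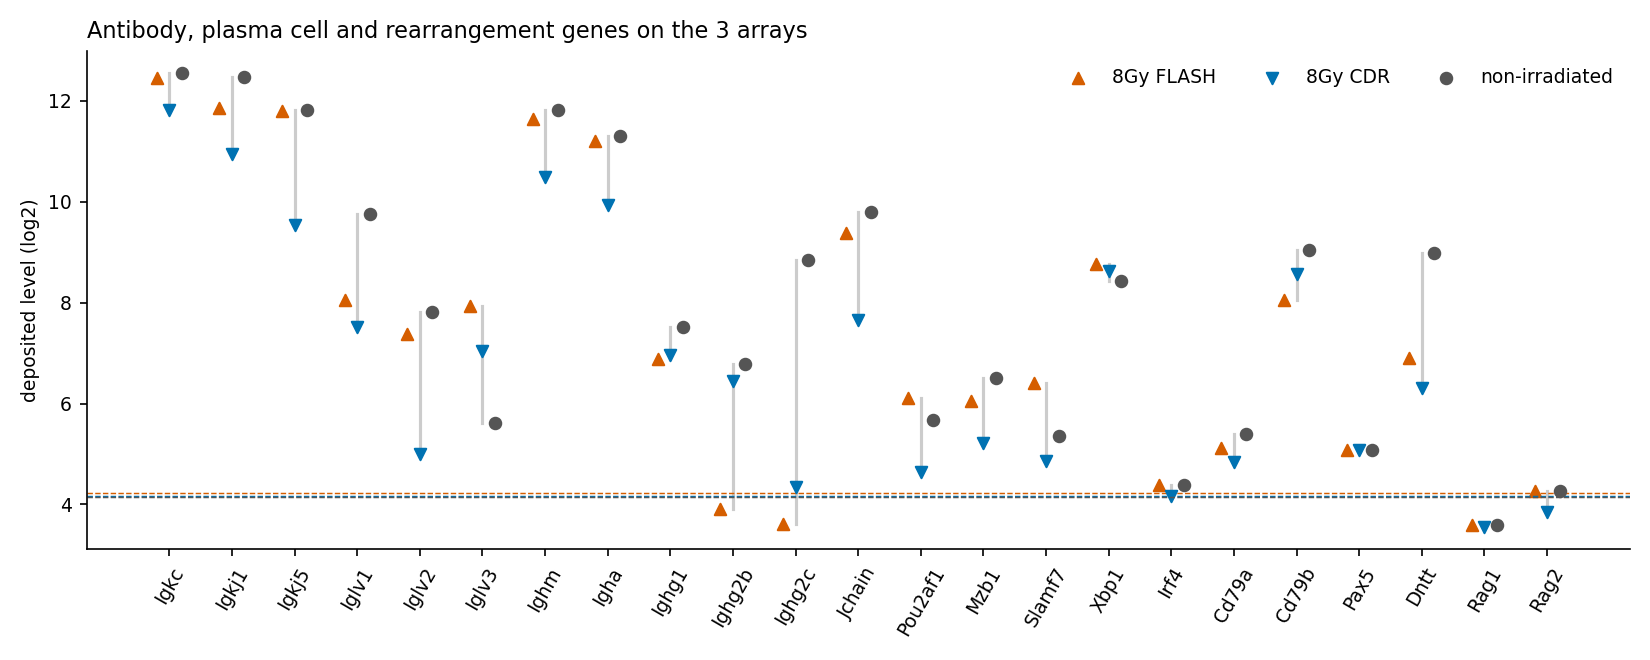
Log2 level (vertical axis) of kappa, lambda and heavy chain genes, antibody-secreting and B cell markers and rearrangement genes on the 8Gy FLASH, 8Gy CDR and non-irradiated arrays. Dashed lines are the detection levels, and Igkc, Igkj1, Igkj5, Ighm, Igha and Jchain have their lowest value on the CDR array.

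Genes of antibody-secreting cells were largely above the detection level, with 16 of 17 listed on FLASH, 15 on CDR and 16 on non-irradiated. Jchain, the joining chain of secreted IgM and IgA, read 9.37 on FLASH, 7.65 on CDR and 9.79 on non-irradiated. Mzb1, a chaperone of antibody secretion, read 6.06, 5.22 and 6.50, and Pou2af1, a coactivator at V promoters, 6.11, 4.65 and 5.67. These 3, like the kappa V median, were lowest on the CDR array, and they were the only genes of the list lower there by 2-fold or more than on non-irradiated. Of the 16 detected in that comparison, 8 were below 0, 5 above 0 and 3 tied. Those above 0 included Creld2 at 0.62 and Edem1 at 0.56. Over all detected genes 2.36% were lower by 2-fold or more on CDR than on non-irradiated. Slamf7 read 6.40 on FLASH, 4.86 on CDR and 5.35 on non-irradiated. Jchain, Pou2af1 and Slamf7 were higher by 2-fold or more on FLASH than on CDR, beside 0.85% of all detected genes. Slamf7 alone was higher by that much on FLASH than on non-irradiated, beside 1.17%. No gene of the list was lower by 2-fold or more in either comparison. Xbp1, a transcription factor of secretion, was level by comparison at 8.77, 8.62 and 8.43, and Prdm1, which drives plasma cell fate, was under the level on all arrays. The list's summed unlogged level was 3102 on FLASH, 2339 on CDR and 2830 on non-irradiated, and its median difference was 0.23 for FLASH minus CDR, -0.05 for CDR minus non-irradiated and 0.12 for FLASH minus non-irradiated. The part of antibody-secreting cells in the kappa values was not tested.

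Most measured genes of the B cell list were under the detection level. Of 12 measured B cell genes, 5 were above the detection level on each array, and Ms4a1 (CD20), Ebf1, Cd22, Blk, Bank1, Fcer2a and Cr2 were under it on all 3. Cd79a and Cd79b, the signalling chains of the B cell receptor, read 5.11 and 8.05 on FLASH, 4.83 and 8.58 on CDR and 5.39 and 9.04 on non-irradiated. The list's summed unlogged level was 525 on FLASH, 598 on CDR and 774 on non-irradiated. It was thus lowest on FLASH, unlike the kappa V sum. Without Cd79b, a choice made after seeing the data, the other 11 summed to 260 on FLASH, 217 on CDR and 249 on non-irradiated. Of the detected genes among these, Cd79a and Igll1 were lower on CDR than on non-irradiated, by -0.56 and -0.63. Vpreb3 was higher by 0.37 and Pax5 tied. The median difference of the 5 detected genes was 0.28 for FLASH minus CDR, -0.46 for CDR minus non-irradiated and 0.00 for FLASH minus non-irradiated. No gene of the list was at least 2-fold different in any of the 3 comparisons.

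Of the V(D)J recombination genes, Rag1, which cuts at the recombination signals, was under the level on all arrays, and its partner Rag2 was at 4.26 on FLASH, 3.85 on CDR and 4.26 on non-irradiated. Dntt, which adds nucleotides at heavy chain joints, read 6.90 on FLASH, 6.30 on CDR and 8.99 on non-irradiated. It was the only 1 of 8 detected genes of this list lower by 2-fold or more on either irradiated array, and the end-joining genes Prkdc, Xrcc5, Xrcc6 and Nhej1 tied on all 3. Over all detected genes 2.36% were lower by that much on CDR and 1.75% on FLASH. Among factors that act at V promoters and the kappa enhancers, Pou2af1 alone of 8 detected differed by 2-fold, and Pou2f2, Irf8, Pax5 and Ikzf1 tied on all 3 arrays. T cell markers Cd3e, Cd3d, Cd3g and Cd8b1 were under the level on all arrays, and the list's summed unlogged level was 92 on FLASH, 91 on CDR and 97 on non-irradiated.

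Dendritic cell genes were mostly higher on FLASH than on CDR, 7 of 8 detected lying above 0 with a median difference of 1.04, and Flt3 below it at -0.42. Of these 8, 4 were higher by 2-fold or more on FLASH than on CDR and 6 higher by 2-fold or more on FLASH than on non-irradiated, among them the MHC class II gene H2-Eb1, which is also made by B cells. Over all detected genes 0.85% were higher by 2-fold or more on FLASH than on CDR, and 1.17% than on non-irradiated. H2-Eb1 read 8.97 on FLASH, 7.66 on CDR and 6.61 on non-irradiated. Of the plasmacytoid markers of this list, Siglech, Ccr9 and Klk1 were under the level on all arrays. Bst2 was above it on all, at 9.22 on FLASH, 9.16 on CDR and 9.22 on non-irradiated. The list's summed unlogged level was 4905 on FLASH, 2693 on CDR and 2366 on non-irradiated, so that the CDR array was not the lowest here. The part of these cells in the kappa values was not tested.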

How the data were processed

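Total RNA of 3 LT-HSC samples was labelled with biotin for Affymetrix whole transcript arrays, per the labels' protocols. The authors deposited 1 table of log2 levels per gene, taken as log2 from its range of values, since no scale is stated. The submitters' processing notes name Partek without a version. No source used here gives the background correction, summarisation, normalisation or genome build. Probe sets were named through the platform's probe table, and the RefSeq gene table of GRCm38.p6 had the same symbol for all 23185. It also gave locus order and gene type. The remaining 2021 probe sets have no symbol there and were left unnamed.

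Groups were taken from the sample titles. Values were used as deposited, and differences, counts at 2-fold (by the deposited difference, and with readings under the detection level raised to it), medians and families were computed in Python 3.11.15 with numpy 2.4.6 and pandas 2.3.3, with plots in matplotlib 3.10.9. With 1 array per group no test was run, and precision is limited by the number of arrays. The calculation was tested on simulated data, in which only genes with a mean well above the detection level were changed. That check did not cover changes from readings well under the level, or exact ties. Named were the 10 detected members with the largest deposited difference in each direction of each comparison, and members of 10 fixed gene lists. Others, chosen after their values were seen, illustrate a family, a detection profile or a wide fold outside those 10. The members and lists were chosen with earlier results of these data known. Alternatives were median centring, quantile normalisation, cyclic loess (limma 3.58.1, R 4.3.3), 32 added before the log, no detection filter, the 99th percentile as detection level, dim values raised to the level, thresholds of 1.5-fold and 3-fold, and leaving out pseudogenes.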

Additional observations from a re-analysis of the deposited data

Results flagged for a closer look

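For 10 members the irradiated arrays departed from the non-irradiated array in opposite directions, each at least 2-fold, with FLASH higher and CDR lower. All 10 kept this with readings under the detection level raised to it. The share of all genes with such opposite departures is not given here, so the count of 10 has no background beside it. The difference between the irradiated arrays was not tested, since each group had 1 array, and both departures share the non-irradiated array. With both arrays above the level, FLASH minus CDR was 5.81 for Igkv4-57-1, 4.33 for Igkv3-5, 4.03 for Igkv4-91, 3.65 for Igkv5-43 and 3.03 for Igkv4-57. The other 5 were under the level on the CDR array, so their deposited differences have no order and the folds are lower bounds. These were 5.95 for Igkv6-13 (at least 47.0-fold higher on FLASH), 5.11 for Igkv8-21 (at least 17.4-fold), 3.76 for Igkv5-45 (at least 11.8-fold), 6.01 for Igkv4-70 (at least 8.42-fold) and 3.27 for Igkv4-78 (at least 7.35-fold). Of the 10, 5 belong to family 4, which holds 25 of the 94 members, and 2 to family 5, which holds 5.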

How the results depend on the processing

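No paired analysis was possible because each group had 1 array. The spread used to judge whether a median moved was the SD of the same difference over the 1364 receptor genes taken as unexpressed, from 0.18 to 0.21. Median centring, quantile normalisation and cyclic loess left all 9 counts and medians within that spread or within 1.5 times of the reported count, as did leaving out pseudogenes, of which the members hold 0. They moved the median of all genes by at most 0.06. With 32 added before the log, the median was 1.18 for FLASH minus CDR and -0.80 for CDR minus non-irradiated, with 25 members lower and 1 higher on CDR and 17 higher on FLASH than on non-irradiated. Without the detection filter the medians were 0.89, -0.56 and, for FLASH minus non-irradiated, 0.00. With the 99th percentile as detection level the first 2 medians were 2.20 and -1.87. They were 1.62 and -1.25 once readings under the detection level were raised to it. In that last setting 40 members were at least 2-fold higher and 3 lower on FLASH than on CDR, 32 lower and 2 higher on CDR than on non-irradiated, and 23 higher and 15 lower on FLASH than on non-irradiated. At 1.5-fold 4 members were higher on CDR than on non-irradiated, and at 3-fold 1 was. At 3-fold 13 were higher and 10 lower on FLASH than on non-irradiated. Of the detected members, 1 changed sign under an alternative. It was Igkv16-104 for CDR minus non-irradiated, which was -0.03 as reported and turned positive under median centring. Levels near the detection level limit what can be said of the 25 members under it on all arrays.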

Other observations

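Exact ties between arrays were rarer among the kappa V segments than over all genes. All 3 arrays held 1 identical value for 7 of the 94 members (7.45%) and for 9225 of 23185 genes (39.8%). The FLASH and CDR arrays tied for 12 members and for 12538 genes. No explanation of the ties was tested.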
